A study of Homo sapiens with 5 samples.

Results

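The SLC25 genes encode the mitochondrial carrier family, and their ribosome footprints were followed here in HAP1 cells with and without ZCCHC4. Members were the rows of the count table whose gene symbol begins with SLC25A, which gave 42 of 13638 rows, each with a different symbol. The table came from 5 ribosome profiling libraries, 3 of ZCCHC4 knockout cells and 2 of wild-type cells. HAP1 is an established near-haploid human line that goes back to a chronic myeloid leukaemia and grows attached to the dish. ZCCHC4 is the methyltransferase that places N6-methyladenosine on 28S ribosomal RNA, according to the title of the series. The groups differ in genotype alone as far as the labels go, no drug treatment is named for either, and lysates of both were made with cycloheximide in the buffer. The labels do not say whether the knockout is 1 clone or several, nor whether libraries came from separate cultures, so the spread that p-values rest on is that of these libraries and may be technical.

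Most SLC25 proteins sit in the inner mitochondrial membrane, where each exchanges a small molecule between the matrix and the cytosol. They share a fold of repeated pairs of membrane helices and are imported from the cytosol after synthesis. ADP/ATP carriers deliver ATP to the cell, the phosphate carrier supplies its other ingredient, and further members move carboxylates, amino acids, cofactors and iron, so the family sets which metabolites cross between compartments.

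Depth moved with genotype. Totals lay between 16940732 and 31557573 counts in the knockout libraries, against 4887380 and 5302160 counts in the wild-type libraries. A count of 3, taken as the limit of detection, equals at most 0.186 CPM in the knockout libraries and 0.517 and 0.560 CPM in the wild-type libraries (CPM is the count scaled to a common library size by edgeR's TMM method). Knockout replicate 2 stood apart from the other knockout libraries: a chi-square over its degrees of freedom came to 27.7 and 24.6 against them, where they gave 2.97 between themselves. The wild-type libraries gave 1.14 between themselves, little above counting error, so their spread may be that of technical repeats. ZCCHC4 itself stood at 3.85, 3.41 and 4.98 CPM in the knockout libraries, against 16.0 and 13.3 CPM in the wild-type libraries (log2 fold change -1.82 ± 0.20, SE). Of the haematopoietic markers looked for, CD34 and CD33 had at most 2 counts in any library, and the others had no row analysed here. VIM, an intermediate filament gene, averaged 511 CPM in the knockout and 132 CPM in wild type. BCR and ABL1, whose fusion the line carries, averaged 4.44 and 0.645 CPM in the knockout and 6.83 and 1.15 CPM in wild type.

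Carrier genes more often held a larger than a smaller share of the footprints in the knockout. A footprint is the piece of mRNA a ribosome covers, so a level reflects mRNA amount and ribosome occupancy together, and in a bulk culture fewer cells of a kind and less RNA per cell cannot be told apart. Of the 42 members, 36 had enough counts to be tested. In edgeR's quasi-likelihood test at an adjusted p under 0.05, 17 members rose and 3 fell, while 16 missed the threshold. The call was made for 55.6% of tested members, against 60.0% of all 11205 rows tested. Rises made up 47.2% of the tested members, where 30.2% of all rows rose, and falls made up 8.33%, where 29.8% of all rows fell. The median log2 fold change was 0.28 over the tested members and 0.02 over all tested rows. Direction is relative to the other genes. Scaled by library totals instead of TMM, 10 members rose and 5 fell, the members' median was 0.062 and that of all rows was -0.20, with 2391 rises and 4563 falls over all rows, against 3380 and 3341 under TMM.

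Change was moderate for most members. Of the 36 tested members, 9 rose and 2 fell at least 1.5-fold, where 20.3% and 21.4% of all tested rows did so. Knockout libraries lay above both wild-type libraries for 22 of the 36 and below both for 4. Of all tested rows 38.5% and 37.9% did so, or 76.4% in either direction. SLC25A10, SLC25A6, SLC25A11, SLC25A5, SLC25A38, SLC25A44, SLC25A3, SLC25A32, SLC25A53 and SLC25A37 kept their direction and their call in all the alternatives that could test them, 15 for each but SLC25A53, which had 14. The other 10 of the 20 calls were lost in at least 1 of them. Without knockout replicate 2, 19 members rose and 5 fell. Over all rows, rises and falls grew in that fit as well, from 3380 and 3341 to 4164 and 4012. The knockout libraries left in it were the pair that lay close together. With wild-type replicate 1 or 2 left out, 1 wild-type library remained. The members' median log2 fold change was then 0.29 or 0.33, against 0.28 with all libraries.

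**Figure D1:**
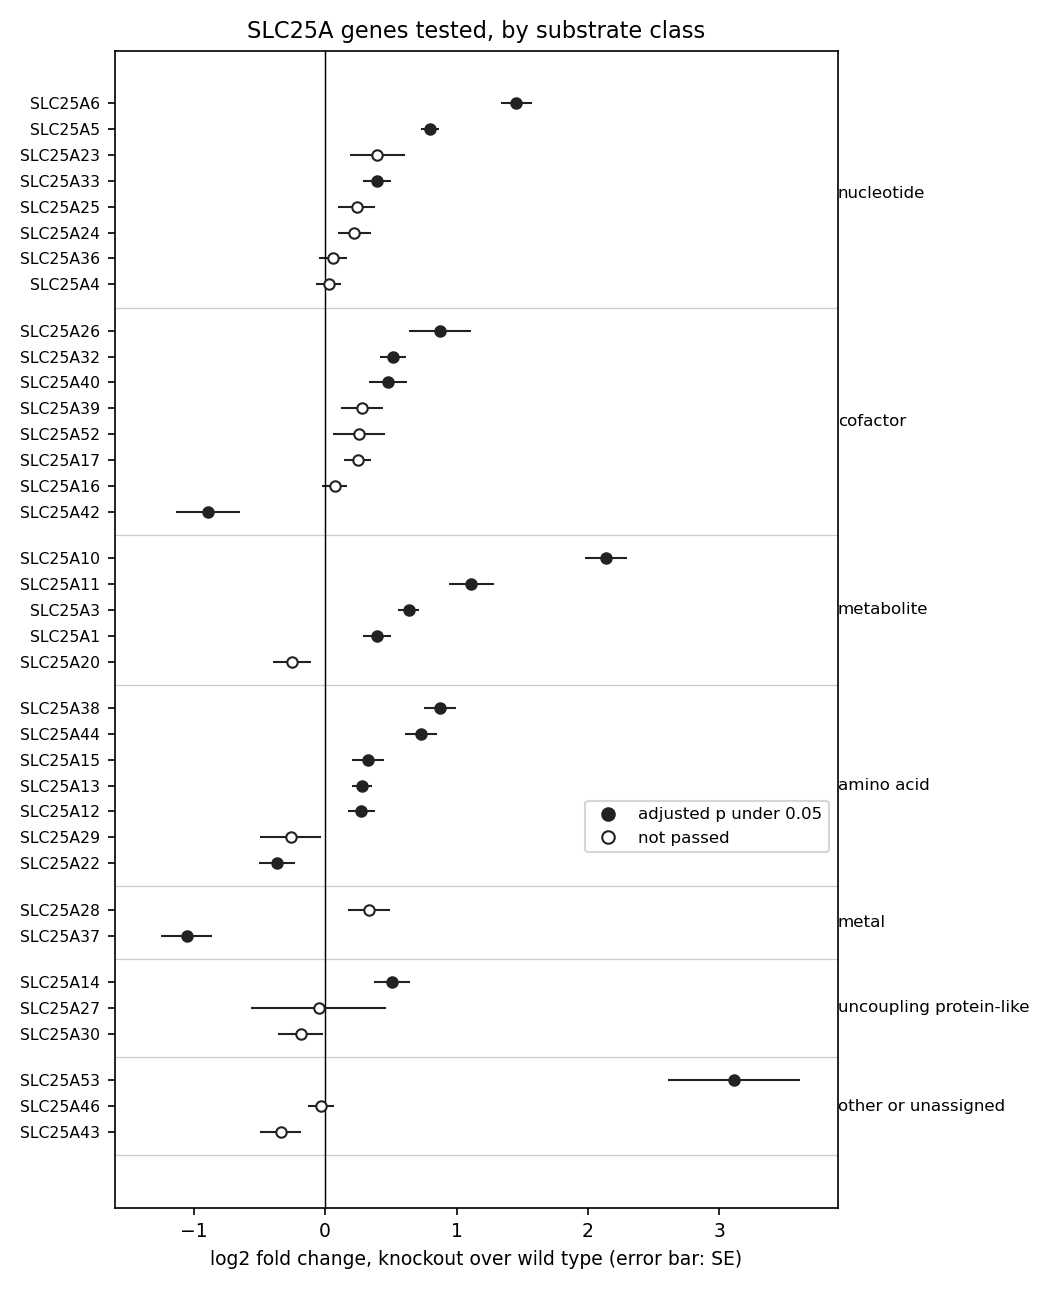
Log2 fold change of footprint levels, knockout over wild type, of the 36 tested SLC25A genes in 7 substrate classes. Points are edgeR estimates with their SE, and filled points passed at an adjusted p under 0.05. All 8 nucleotide carriers lie right of 0 (SLC25A4 and SLC25A36 lie left of it when scaled by library totals). SLC25A4 was also below 0 with upper-quartile scaling (-0.03), a mean count of at least 50 (-0.04) and without knockout replicate 2 (-0.05). Metabolite carriers reach 2.14 (SLC25A10), and SLC25A37 has the lowest value, -1.05.

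ADP/ATP carriers exchange cytosolic ADP for matrix ATP and included the member with the most footprints. SLC25A5 (ANT2, the isoform of dividing cells; ENST00000317881, hg38 chromosome X, 119468400 to 119471319, plus strand, 4 exons) had 2259, 2600.4 and 2394 CPM in the knockout libraries, against 1395 and 1385 CPM in the wild-type libraries. It rose by a log2 fold change of 0.80 ± 0.07 (SE, n = 3 and n = 2; edgeR adjusted p = 1.69e-05). SLC25A6 (ANT3; ENST00000381401, chromosome X, 1386152 to 1392724, minus strand, 4 exons) had 690.3, 919.5 and 754 CPM in the knockout, against 296 and 279 CPM in wild type, and rose by 1.45 ± 0.12 (adjusted p = 1.12e-05). All knockout libraries exceeded all wild-type libraries for both genes, and knockout replicate 2 was the highest. SLC25A4 (ANT1, the isoform of heart and muscle; ENST00000281456, chromosome 4, 185143241 to 185150382, plus strand, 4 exons) had 107, 126 and 108 CPM in the knockout, against 111 and 112 CPM in wild type. Its libraries overlapped and it did not pass (0.03 ± 0.10, adjusted p = 0.819). SLC25A31, the testis isoform ANT4, had 1 count in all 5 libraries.

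These isoforms are related in sequence, so the counts of each depend on how far footprints can be told apart. Over 894 coding bases, SLC25A5 and SLC25A6 were identical at 78.8%, SLC25A4 and SLC25A6 at 77.9% and SLC25A4 and SLC25A5 at 77.2%. The longest stretch without a difference between SLC25A5 and SLC25A6 ran over 29 bases, coding bases 85 to 113. The stretch of coding bases 70 to 129 around it, from the GENCODE 29 transcripts on GRCh38, is given because it is where footprints of these isoforms are hardest to assign. Capitals mark letters that differ from SLC25A5.
SLC25A5: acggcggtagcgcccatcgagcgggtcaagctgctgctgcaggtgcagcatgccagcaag
SLC25A6: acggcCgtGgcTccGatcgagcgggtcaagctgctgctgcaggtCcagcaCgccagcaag
SLC25A4: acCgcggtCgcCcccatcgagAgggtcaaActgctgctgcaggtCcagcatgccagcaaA
Of the 28-base windows of each coding sequence, the shortest footprint isolated, 2 were shared exactly between SLC25A5 and SLC25A6 and none between SLC25A4 and another gene. Pseudogenes shared more. For SLC25A5, 43% of its 867 windows also occurred elsewhere in annotated transcripts, all but 2 windows in pseudogenes, against 7.27% for SLC25A6. The level of SLC25A5 is therefore uncertain if such reads were split. The 7.27% leaves out the copy of SLC25A6 in the region shared by chromosomes X and Y, which was counted as the gene itself. The level of SLC25A6 is uncertain too if reads were split between those copies.

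Within each library, the isoforms' shares of their summed counts do not depend on scaling between libraries. SLC25A6 took 22.6%, 25.2% and 23.2% of ADP/ATP carrier counts in the knockout, against 16.4% and 15.7% in wild type. SLC25A4 took 3.52%, 3.44% and 3.33% in the knockout, against 6.17% and 6.31% in wild type, and SLC25A5 took 72.9% ± 1.38 in the knockout and 77.7% ± 0.38 in wild type (SD, n = 3 and n = 2). The genotypes did not overlap for any of these shares. An exact two-sided permutation test gave p = 0.2 for each (0.224 after Benjamini-Hochberg adjustment over 19 such shares and ratios). The test doubles the p of the smaller tail, and 0.2 is the smallest it can give for 3 libraries against 2. All SLC25A rows together took 0.479%, 0.563% and 0.494% of all counts in the knockout, against 0.364% and 0.363% in wild type, and the 3 isoforms made up 61.0% of them in the knockout and 53.9% in wild type.

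**Figure D2:**
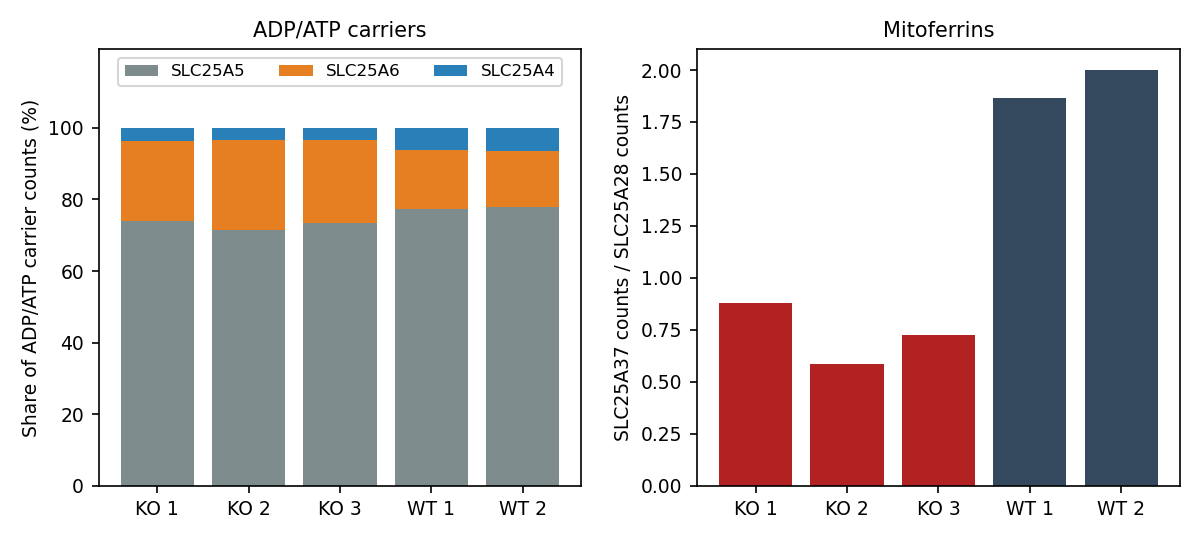
Shares within each library. On the left, bars stack the percentages of the summed counts of SLC25A5, SLC25A6 and SLC25A4 in each library, and SLC25A6 is wider in the knockout at 22.6% to 25.2% than in wild type at 15.7% and 16.4%. On the right, bars give the ratio of SLC25A37 to SLC25A28 counts, which lies below 1 in the 3 knockout libraries and at 1.86 and 2 in the wild-type libraries.

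The other nucleotide carriers had smaller fold changes than SLC25A5 and SLC25A6. SLC25A33, which carries pyrimidine nucleotides for mitochondrial DNA and RNA, had 37.3, 35.3 and 36.8 CPM in the knockout, against 26.0 and 29.7 CPM in wild type (0.39 ± 0.11, adjusted p = 0.0111). Its knockout libraries lay above both wild-type libraries, but 82.1% of its coding windows also occurred in a pseudogene. Leaving out wild-type replicate 1 ended the call at 0.30 (adjusted p between 6.66e-05 and 0.183 over 15 alternatives). SLC25A36, a second pyrimidine nucleotide carrier, had 38.2, 34.5 and 38.9 CPM in the knockout, against 34.3 and 37.1 CPM in wild type, and did not pass (0.06 ± 0.11). The calcium-regulated ATP-Mg/phosphate carriers SLC25A23, SLC25A24 and SLC25A25 had log2 fold changes between 0.22 and 0.40 and did not pass, and their relative SLC25A41 had 2 counts in all. SLC25A24 passed at 0.33 without knockout replicate 2, a fit in which more of all rows passed. It stood at 55.1 CPM in that replicate and at 71.5 and 69.2 CPM in knockout replicates 1 and 3. Wild type had 57.3 and 54.9 CPM. Of 8 tested nucleotide carriers, 3 rose and 5 did not pass in edgeR's test, with a median of 0.32, or 0.10 with library totals. The rises are 37.5% of those tested, near the 30.2% of all tested rows.

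Metabolite carriers held the largest rise among the well-covered members. SLC25A10, the dicarboxylate carrier that exchanges malate or succinate for phosphate (ENST00000350690, hg38 chromosome 17, 81712341 to 81721012, plus strand, 11 exons), had 37.0, 44.2 and 36.3 CPM in the knockout, against 8.10 and 9.71 CPM in wild type. Every knockout library was far above both wild-type libraries, and the gene rose 4.39-fold (log2 fold change 2.14 ± 0.16, SE, n = 3 and n = 2; adjusted p = 7.49e-06). A second gene model of GENCODE overlaps this locus and holds 87.5% of its coding windows, so the 2 cannot be separated by sequence over most of its length. SLC25A11, the 2-oxoglutarate/malate carrier of the malate-aspartate shuttle (ENST00000225665, chromosome 17, 4937130 to 4940251, minus strand, 8 exons), had 87.1, 127 and 91.9 CPM in the knockout, against 49.7 and 44.2 CPM in wild type. It rose by 1.11 ± 0.17 (adjusted p = 0.000472), and none of its windows was shared. Knockout replicate 2 was 1.41 times the mean of the other knockout libraries for this gene.

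SLC25A3, the phosphate carrier that feeds ATP synthase (ENST00000228318, chromosome 12, 98593625 to 98601997, plus strand, 8 exons), had 981, 1121 and 940.3 CPM in the knockout, against 658 and 648 CPM in wild type. Its libraries did not overlap and it rose by 0.63 ± 0.08 (adjusted p = 0.000177). SLC25A1, the citrate carrier that exports acetyl units for lipid synthesis, had 76.1, 92.1 and 79.6 CPM in the knockout, against 61.6 and 64.0 CPM in wild type. It rose by 0.39 ± 0.11 (adjusted p = 0.011), a call lost without wild-type replicate 1 (0.37) or 2 (0.42), with an adjusted p between 4.53e-05 and 0.196 over 15 alternatives. SLC25A20, the carnitine/acylcarnitine carrier of fatty acid oxidation, went the other way in value. It had 27.4, 36.0 and 27.9 CPM in the knockout, against 37.6 and 34.5 CPM in wild type, and did not pass (-0.25 ± 0.14, adjusted p = 0.158). Knockout replicate 2 was 1.30 times the other knockout libraries there. Without it SLC25A20 passed at -0.38, in a fit where more of all rows passed. Of the 5 metabolite carriers, 4 rose and 1 did not pass in edgeR's test, with a median of 0.63, or 0.42 with library totals. The rises are 80.0% of these few genes, against 30.2% of all tested rows.

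Among the members past the threshold whose promoters were searched, SLC25A3 and SLC25A11 held the letters GCGCNTGCGC, or GCGCANGCGC as read on the other strand, the binding motif of NRF1, a transcription factor of nuclear genes for mitochondrial proteins. The 250 bases before each start in RefSeq (GRCh38.p14) are shown 5′ to 3′ on the gene's strand with that motif in capitals, together with the CCAAT box that only SLC25A3 holds.
SLC25A3, chr12:98593436-98593685, plus strand: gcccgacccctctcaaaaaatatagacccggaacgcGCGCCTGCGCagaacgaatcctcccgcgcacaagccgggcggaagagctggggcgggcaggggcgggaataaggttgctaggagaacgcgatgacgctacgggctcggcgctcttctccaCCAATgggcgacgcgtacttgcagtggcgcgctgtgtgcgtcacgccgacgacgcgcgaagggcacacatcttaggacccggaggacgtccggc
SLC25A11, chr17:4940047-4940296, minus strand: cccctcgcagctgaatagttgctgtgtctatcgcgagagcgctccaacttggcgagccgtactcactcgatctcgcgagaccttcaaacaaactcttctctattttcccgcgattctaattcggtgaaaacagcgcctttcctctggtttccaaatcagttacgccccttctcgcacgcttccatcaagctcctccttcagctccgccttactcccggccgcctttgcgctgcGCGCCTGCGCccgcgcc
Promoters of 36 of the 42 members were searched, 45 windows in all, and those of SLC25A2, SLC25A16, SLC25A30, SLC25A32, SLC25A37 and SLC25A41 were not analysed here. The NRF1 letters on either strand were in 8.89% of them, close to the 7.95% of the 15037 promoters of genes in the table. The other holders were SLC25A31, which was not tested, and SLC25A52, which did not pass. CCAAT on either strand was in 44.4% of the members' promoters and 32.7% of those of the table, CACGTG in 15.6% and 7.91%, and TGACGTCA in 6.67% and 2.31%. A match describes letters and is not evidence of binding.

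Amino acid carriers rose more often than they fell. SLC25A38, the glycine carrier needed for haem synthesis (ENST00000273158, hg38 chromosome 3, 39383324 to 39397351, plus strand, 7 exons), had 25.7, 25.5 and 24.5 CPM in the knockout, against 13.3 and 14.4 CPM in wild type. It rose by 0.87 ± 0.12 (SE, n = 3 and n = 2; adjusted p = 0.000267), although 31.9% of its coding windows recur in a pseudogene. SLC25A44, a carrier of branched-chain amino acids (chromosome 1, 156194089 to 156212796), had 28.1, 31.0 and 27.3 CPM in the knockout, against 17.1 and 17.5 CPM in wild type, a rise of 0.73 ± 0.12 (adjusted p = 0.000752). Libraries of the genotypes did not overlap for either gene.

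The aspartate/glutamate carriers, the other carriers of the malate-aspartate shuttle, passed with small rises. SLC25A13 (citrin) had 177, 167 and 177 CPM in the knockout, against 145 and 141 CPM in wild type (0.28 ± 0.08, adjusted p = 0.011). SLC25A12 (aralar) had 46.3, 50.2 and 44.7 CPM in the knockout, against 39.0 and 38.6 CPM in wild type (0.28 ± 0.10, adjusted p = 0.0394). Citrin was the larger in every library, at 3.71 ± 0.33 times the aralar count in the knockout and 3.69 ± 0.05 times in wild type (SD), and this ratio overlapped between genotypes (exact two-sided permutation p = 1). SLC25A15, the ornithine carrier of the urea cycle, rose by 0.33 ± 0.12 (adjusted p = 0.0417), with 28.2, 27.6 and 28.6 CPM in the knockout, against 24.7 and 20.2 CPM in wild type. SLC25A22, a glutamate carrier, fell by 0.37 on the log2 scale (SE 0.14, adjusted p = 0.0474), with 20.3, 24.1 and 19.03 CPM in the knockout, against 25.3 and 28.9 CPM in wild type.

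These 4 small changes were not stable: over 15 alternatives SLC25A13 passed in 9, SLC25A22 in 6, SLC25A15 in 4 and SLC25A12 in 3. Left out singly, wild-type replicate 2 ended the call of each of the 4 (0.26, -0.27, 0.19 and 0.27), wild-type replicate 1 those of SLC25A13, SLC25A22 and SLC25A12 (0.30, -0.46 and 0.28), knockout replicate 3 those of all 4 (0.26, -0.30, 0.31 and 0.31) and knockout replicate 1 those of SLC25A22, SLC25A15 and SLC25A12 (-0.35, 0.32 and 0.28). SLC25A29, a carrier of basic amino acids, varied most within the knockout, at 9.53, 16.2 and 11.7 CPM, against 15.3 and 14.2 CPM in wild type. It did not pass (-0.26 ± 0.23, adjusted p = 0.351). Without knockout replicate 2, which held the highest of these values, it passed at -0.47, in a fit where more of all rows passed. The ornithine carrier SLC25A2 and the glutamate carrier SLC25A18 had at most 4 counts in any library. Of the 7 tested amino acid carriers 5 rose and 1 fell, with a median of 0.28, or 0.061 with library totals. These are 71.4% and 14.3%, against 30.2% and 29.8% of all tested rows, and they include the 4 unstable calls.

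The iron carriers differed in direction of value. SLC25A37 (mitoferrin 1, the iron importer that developing red cells depend on; ENST00000519973, hg38 chromosome 8, 23528805 to 23575463, plus strand, 4 exons) had 8.10, 5.45 and 7.18 CPM in the knockout, against 14.1 and 14.9 CPM in wild type. No knockout library reached either wild-type library, and the gene fell by 1.05 on the log2 scale (SE 0.19, n = 3 and n = 2; adjusted p = 0.00133), a 2.07-fold fall. SLC25A28 (mitoferrin 2, the more widely expressed importer; ENST00000370495, chromosome 10, 99610522 to 99620364, minus strand, 4 exons) had 9.20, 9.29 and 9.89 CPM in the knockout, against 7.59 and 7.47 CPM in wild type. The libraries did not overlap, but the difference did not pass (0.33 ± 0.16, adjusted p = 0.103). Within a library SLC25A37 had 0.880, 0.587 and 0.726 times the counts of SLC25A28 in the knockout, against 1.86 and 2 times in wild type. The order of the pair by counts thus turned round (exact two-sided permutation p = 0.2, the smallest that test can give here). Their coding lengths are close, 1014 and 1092 bases, and neither shares a window with another gene.

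SLC25A37 lies in a stretch where many genes were lower. Of the 142 other tested genes on chromosome 8 that start below 50 Mb, 103 fell and 9 rose in edgeR's test. These are 72.5% and 6.34%, against 29.8% and 30.2% of all tested rows. Their median log2 fold change was -0.88. The part of this stretch in the fall of SLC25A37 was not tested. SLC25A32, on the other side of the 50 Mb mark, has 244 tested neighbours on the rest of the chromosome with a median of 0.09.

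Cofactor carriers changed in both directions. SLC25A32, linked to folate and FAD entry (ENST00000297578, chromosome 8, 103398635 to 103415104, minus strand, 7 exons), had 56.3, 50.5 and 55.8 CPM in the knockout, against 38.3 and 37.7 CPM in wild type. It rose by 0.51 ± 0.10 (SE, n = 3 and n = 2; adjusted p = 0.00189), and an overlapping gene model holds 83.2% of its coding windows. SLC25A26, the carrier of S-adenosylmethionine, the methyl donor, had 7.95, 9.78 and 8.63 CPM in the knockout, against 3.62 and 5.97 CPM in wild type. It rose by 0.87 ± 0.24 (adjusted p = 0.0104), but its wild-type counts were 21 and 32, and without wild-type replicate 1 the call was lost at 0.55 (adjusted p between 0.000309 and 0.143 over 15 alternatives). SLC25A42, a coenzyme A carrier, had 2.71, 2.04 and 2.78 CPM in the knockout, against 5.00 and 4.48 CPM in wild type. It fell by 0.89 on the log2 scale (SE 0.24, adjusted p = 0.0113) with no overlap of libraries, and this call was lost without wild-type replicate 1 (-0.81) or 2 (-0.97), with an adjusted p between 0.00332 and 0.107 over 14 alternatives.

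The glutathione carriers SLC25A39 and SLC25A40 had values above wild type in every knockout library. SLC25A40 had 15.3, 13.7 and 14.4 CPM in the knockout, against 10.5 and 10.3 CPM in wild type, and rose by 0.48 ± 0.14 (adjusted p = 0.0168). It passed in 6 of 15 alternatives, and the call was lost without knockout replicate 1 (0.43) or 3 (0.48) and without wild-type replicate 1 (0.50) or 2 (0.46). SLC25A39 had 46.7, 62.2 and 45.0 CPM in the knockout, against 39.5 and 44.8 CPM in wild type, and did not pass (0.28 ± 0.16, adjusted p = 0.152). The peroxisomal carrier SLC25A17 (0.25 ± 0.10, adjusted p = 0.0619), the coenzyme A related SLC25A16 (0.07 ± 0.09) and the NAD carrier SLC25A52 (0.26 ± 0.20) did not pass, and 55.9% of the windows of SLC25A52 recur in genes that are not pseudogenes, chiefly its paralog SLC25A51. SLC25A17 passed at 0.21 without knockout replicate 2, a fit in which more of all rows passed. Of 8 cofactor carriers 3 rose and 1 fell, with a median of 0.27, or 0.051 with library totals. These are 37.5% and 12.5%, against 30.2% and 29.8% of all tested rows.

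**Figure D3:**
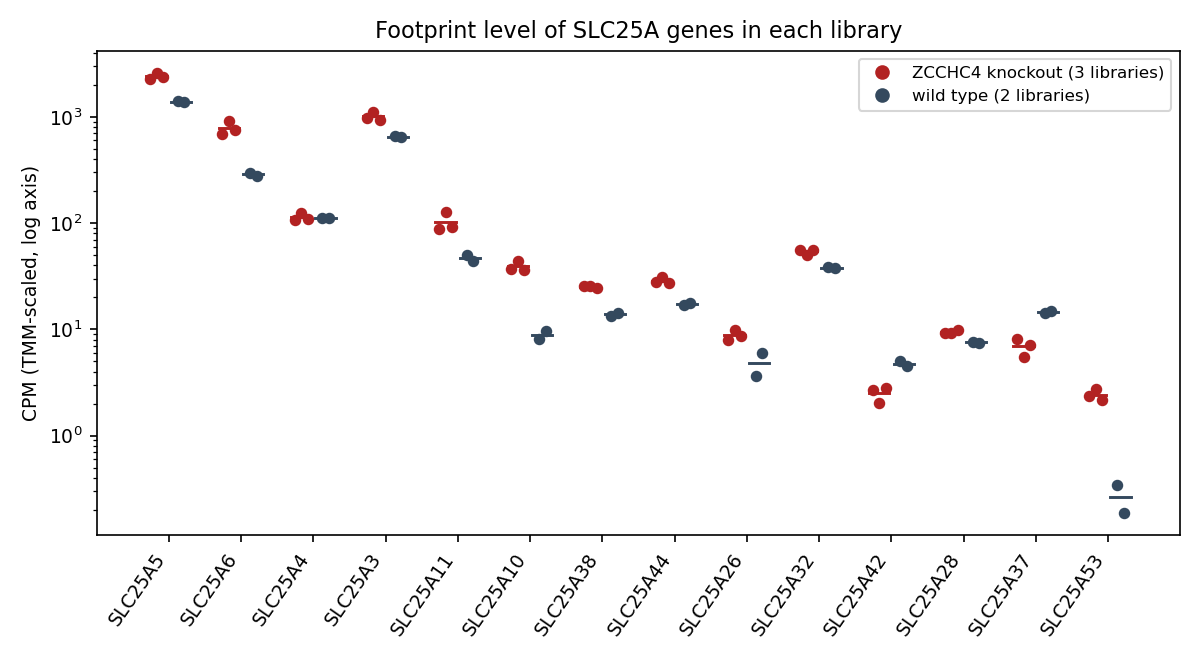
CPM of 14 SLC25A genes in each of the 5 libraries, on a log axis. Points are libraries and lines are group means, knockout left of wild type. The groups of SLC25A4 overlap while those of SLC25A5 and SLC25A6 are apart, SLC25A10 and SLC25A53 show the widest gaps, and SLC25A42 and SLC25A37 are lower in every knockout library.

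Of the 3 tested carriers related to uncoupling proteins and the 3 tested without a settled substrate, 1 of each rose in edgeR's test. The others did not pass. The rises are 33.3% of each set, near the 30.2% of all tested rows. SLC25A14 (UCP5) had 27.0, 22.3 and 27.0 CPM in the knockout, against 18.3 and 17.5 CPM in wild type, and rose by 0.51 ± 0.14 (adjusted p = 0.0105). Its call was lost without wild-type replicate 1 (0.54) or 2 (0.48), with an adjusted p between 2.22e-06 and 0.0872 over 15 alternatives. SLC25A30 averaged 13.9 ± 1.12 CPM in the knockout and 16.0 ± 4.06 CPM in wild type, and SLC25A27 (UCP4) had 16, 12 and 16 counts in the knockout, against 4 and 3 in wild type. Neither passed. SLC25A46, an outer membrane protein of mitochondrial shape, had 44.3, 40.7 and 39.5 CPM in the knockout, against 42.6 and 42.2 CPM in wild type (-0.03 ± 0.10, adjusted p = 0.812). SLC25A43 (-0.34 ± 0.16, adjusted p = 0.0885) ends 13922 bases before SLC25A5 starts on chromosome X, on the same strand, and its libraries lay below wild type where those of SLC25A5 lay above.

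SLC25A53, an orphan carrier (ENST00000594199, chromosome X, 104099214 to 104157027, minus strand, 2 exons), was nearly undetected in wild type. It had 64, 44 and 64 counts in the knockout, or 2.35, 2.72 and 2.17 CPM, against 2 and 1 counts in wild type. With 3 wild-type counts in all, the ratio of knockout to wild type was 8.77 with an exact 95% interval from 2.95 to 42.9, which covers counting error only (edgeR adjusted p = 0.000651). A pseudogene holds 27.6% of its windows. The remaining untested members were SLC25A34, with 1 count in all, and SLC25A45, with 16, 6 and 14 counts in the knockout, against 2 and 5 in wild type.

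Levels per kilobase of coding sequence spanned more than the genotype effects. SLC25A5 stood at 2705 CPM per kb in the knockout and 1555 CPM per kb in wild type, SLC25A3 at 934 and 601, SLC25A6 at 882 and 322, and SLC25A4 at 127 and 125. SLC25A11 had 108 CPM per kb in the knockout and 49.8 in wild type, which placed it above SLC25A1 and SLC25A13 in the knockout (88.5 and 85.8) and below both in wild type (67.3 and 70.7). SLC25A10 had 45.5 CPM per kb in the knockout and 10.3 in wild type. SLC25A17 and SLC25A16, leading the cofactor carriers in wild type, had 60.4 and 46.0 CPM per kb in the knockout and 50.8 and 43.7 in wild type, and both mitoferrins stayed below 15 in either genotype. Across the 36 tested members the log2 fold change had a Spearman rho of 0.24 with average level, -0.28 with coding length and -0.03 with coding GC content, given as a description over genes that share libraries.

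Relatives of the family that carry other symbols were higher. UCP1, the proton carrier of heat-producing brown fat, had 182, 144 and 207 counts in the knockout, or 6.67, 8.92 and 7.01 CPM, and no count in either wild-type library. Its knockout level was at least 27.2-fold higher than a limit of 3 counts over both wild-type libraries together. UCP2, an uncoupling protein of many tissues, was at 1.11 ± 0.38 (adjusted p = 0.0317), a call lost without knockout replicate 3 (1.12) and without wild-type replicate 1 (0.71) or 2 (1.62; adjusted p between 0.0237 and 0.27 over 13 alternatives). The outer membrane proteins MTCH2 and MTCH1, which depart from the carrier role, were at 0.29 ± 0.07 and 0.38 ± 0.12 and passed, and both calls were lost without wild-type replicate 1 (0.27 and 0.46) or 2 (0.30 and 0.31). UCP3 had at most 1 count in any library. These 4 tested relatives all rose in edgeR's test, with log2 fold changes from 0.29 upwards. Over all 6 lists of related genes described from here on, these included, 26 of 59 tested genes rose and 15 fell, or 19 and 21 when scaled by library totals. Under TMM these are 44.1% and 25.4%, against 30.2% and 29.8% of all tested rows.

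Porins let the carriers' substrates through the outer membrane, and 2 of the 3 rose, or 66.7%, against 30.2% of all tested rows. VDAC1 had 642, 635 and 630.2 CPM in the knockout, against 387 and 392 CPM in wild type (0.71 ± 0.06, adjusted p = 1.72e-05). VDAC2 was at 0.58 ± 0.06 (adjusted p = 5.01e-05), and VDAC3 averaged 411 ± 5.85 CPM in the knockout and 392 ± 8.48 CPM in wild type without passing. Of 14 genes that bring carrier proteins into mitochondria, 8 rose and 1 fell, and the median was 0.40. These are 57.1% and 7.14%, against 30.2% and 29.8% of all tested rows. TIMM8A, a chaperone of the intermembrane space, had 59.6, 63.4 and 57.7 CPM in the knockout, against 19.3 and 17.9 CPM in wild type (1.69 ± 0.11, adjusted p = 3.54e-06). The outer membrane translocase subunits TOMM22 and TOMM7 rose by 0.83 ± 0.08 and 0.70 ± 0.09, and the member that fell was TIMM9 at -0.79, named after its value was seen.

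Transporters of the inner membrane outside the family moved both ways, with 5 rises and 7 falls among 16 and a median of 0.07. These are 31.2% and 43.8%, against 30.2% and 29.8% of all tested rows. SFXN2, a sideroflexin, had 6.41, 5.57 and 5.89 CPM in the knockout, against 0.862 and 1.31 CPM in wild type (2.47 ± 0.30, adjusted p = 0.000109). ABCB10, an ATP-driven transporter with a part in haem synthesis, had 42.5, 48.4 and 41.0 CPM in the knockout, against 78.6 and 74.1 CPM in wild type (-0.80 ± 0.10, adjusted p = 0.00016). CCDC109B, an inhibitory relative of the calcium uniporter, had 43.3, 41.7 and 44.3 CPM in the knockout, against 74.5 and 72.6 CPM in wild type (-0.77 ± 0.09, adjusted p = 7.54e-05). The uniporter pore MCU (-0.61) and its regulators MICU2 (-0.59) and MICU3 (-0.87) fell as well, a subset picked out after the values were seen. Leaving out wild-type replicate 1 ended the MICU3 call at -0.80 (adjusted p between 0.000177 and 0.0593 over 15 alternatives).

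Enzymes on either side of the carriers showed no common direction. Of the malate-aspartate shuttle enzymes, cytosolic MDH1 had 611, 547 and 547 CPM in the knockout, against 316 and 314 CPM in wild type (0.85 ± 0.08, adjusted p = 1.89e-05). Cytosolic GOT1 had 156, 176 and 151 CPM in the knockout, against 243 and 230.3 CPM in wild type (-0.56 ± 0.09, adjusted p = 0.000508). Their mitochondrial partners GOT2 (-0.20 ± 0.08, edgeR adjusted p = 0.053) and MDH2 (-0.10 ± 0.08) did not pass. GOT2 lay below both wild-type libraries in every knockout library and passed in 6 of 15 alternatives, while the libraries of MDH2 overlapped. Of 18 genes of mitochondrial iron use, 6 rose and 6 fell, and the median was -0.14. At 33.3% each way, these shares were near the 30.2% and 29.8% of all tested rows. CPOX, an enzyme of haem synthesis, had 52.8, 53.8 and 52.4 CPM in the knockout, against 27.8 and 28.4 CPM in wild type (0.92 ± 0.10, adjusted p = 5.09e-05). ISCU, the scaffold on which iron-sulfur clusters are built, was at -0.90 ± 0.12 (adjusted p = 0.000252).

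**Figure D4:**
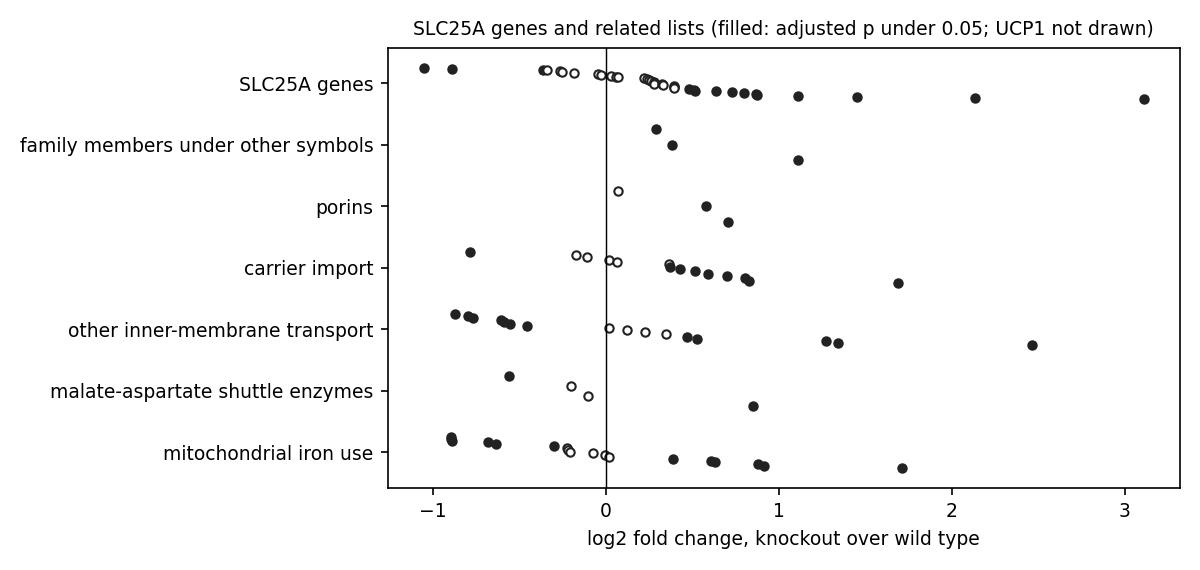
Log2 fold change, knockout over wild type, of the tested SLC25A genes and 6 related lists. Each point is a gene, filled where the adjusted p was under 0.05, and UCP1 is left out because it had no wild-type count. Porins and carrier import genes lie mostly right of 0, while inner-membrane transporters and iron genes spread to both sides.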

How the data were processed

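Ribosome footprints of HAP1 cells were measured in 5 libraries, 3 of ZCCHC4 knockout and 2 of wild-type cells. Per the labels' protocols, monosomes were isolated after RNase I digestion and fragments of 28 to 32 nt were cloned; the labels' molecule field names polyA RNA instead. Per the submitters' processing notes, Bowtie and hg38 were used. The counting tool, annotation, strand, duplicate removal and handling of multiply mapping reads were not given in the sources used here. The deposited table held whole-number counts per transcript and symbol, with a header shifted by 1 cell.

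The tests on these counts used edgeR 4.0.16 under R 4.3.3 (TMM, filterByExpr with a minimum count of 10, glmQLFit, glmQLFTest, genotype as the only term). Benjamini-Hochberg adjustment ran over all 11205 rows tested, at a threshold of 0.05. Standard errors of log2 fold changes were derived from them and the F statistic. The procedure was also run on simulated counts in which few genes changed and no library stood apart, which differs from these data. Alternatives included DESeq2 1.42.0 and voom in limma 3.58.1. Transcripts were matched to GENCODE 29 (13533 rows), and windows of 28 bases were compared exactly, without mismatches. Substrate classes came from general knowledge. The naming rule gave each SLC25A row, passing members changed at least 1.5-fold in full, the leading members of each class, and up to 3 genes of each related list by adjusted p. The members and lists were chosen with earlier results of these data known. SLC25A genes without a row were not analysed here, and some genes of the related lists are not reported here.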

Additional observations from a re-analysis of the deposited data

How the results depend on the processing

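With library totals, class medians were 0.10 (nucleotide), 0.051 (cofactor), 0.42 (metabolite), 0.061 (amino acid), -0.58 (metal), -0.27 (uncoupling protein-like) and -0.25 (other), the median of all members was 0.062, and 10 members rose and 5 fell. A mean count of at least 50 gave 0.21 for amino acid carriers and for all members, -0.26 for the others and 0.090 for the uncoupling protein-like ones, and upper-quartile scaling gave 0.22 for amino acid carriers and all members and -0.11 for the uncoupling protein-like ones. The last class, 3 genes with a median of -0.05, also moved to 0.022 with the knockout thinned to wild-type depth, -0.16 with limma-voom, -0.0056 with no filter and 0.062 with the replicate block. With the wild-type libraries summed 11 members rose. Leaving out 1 knockout library gave 13 to 19 rises and 2 to 5 falls among members. Over all rows it gave 2993 to 4164 rises and 2976 to 4012 falls. Any 1 library left out gave medians of -0.12 to 0.12 for the uncoupling protein-like class and 0.29 to 0.33 for all members. In no alternative did a called member change direction. The replicate numbers are not said to pair libraries, and same-numbered libraries deviated with correlations of -0.09 and -0.08 across genes. With the number as a block 12 members rose and 2 fell, against 17 and 3 without it. Over all rows 3068 rose and 3026 fell with the block, against 3380 and 3341 without it. Depth limits the wild-type values most, since 3 counts there equal 0.517 and 0.560 CPM.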
